A study of Homo sapiens with 40 samples.

Results

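FaDu is a cell line from a human hypopharyngeal squamous cell carcinoma, grown here as spheroids that carry Dendra2, a green fluorescent protein that turns red under violet light. The comparison set 4 samples of non-invasive cells from spheroids given epidermal growth factor (EGF) against 4 samples of spheroids kept in serum-free medium, 8 samples of 40 in the series, chosen by their sample titles. Both groups were FaDu-Dendra2 cells, listed as wildtype in genotype, embedded in type I collagen for 72 h, and differed in 9 nM EGF against none. They differed as well in how the cells were taken. The titles describe the EGF samples as photoconverted non-invasive cells and the selection label lists the serum-free samples as unselected, so the effect of EGF and the effect of selection cannot be told apart. The selection label gives the non-invasive samples the same entry as the invasive ones, photoconverted invasive, so their identity rests on the titles. The column names of the count table call them non-invasive as well. The other FaDu samples were invasive cells of EGF-treated spheroids, spheroids given EGF with 10 µg/mL cetuximab, an antibody to the EGF receptor, and spheroids with EGF and 100 nM AZD6244, an inhibitor of the kinase MEK. The same 5 groups of 4 samples exist for Kyse30, an oesophageal squamous carcinoma line. The protocol describes light conversion of Dendra2 in the invasive areas of 40 spheroids for each treatment, then dissociation with enzymes and sorting, and does not describe conversion of non-invasive cells. Each group comes from 1 line, and no label says that the 4 samples were separate cultures, so the tests measure the spread between samples, which may be technical.

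EGF binds its receptor EGFR, which pairs with itself or with its relatives ERBB2 and ERBB3 and activates the RAS, RAF, MEK and ERK kinases. ERK switches on transcription factors of the AP-1 and ETS families and, with them, phosphatases and Sprouty proteins that restrain the same pathway. In squamous epithelia the receptor keeps basal cells dividing, and loss of its signal favours differentiation, in which cells exchange their keratins and leave the cell cycle.

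The libraries read the 3' ends of polyadenylated RNA, so long transcripts do not collect more counts than short ones. Non-invasive libraries held 4320744 to 4526154 counts and serum-free libraries 2312126 to 4112207, over 12655 genes. Levels are given as counts per 1000000 (CPM), scaled with edgeR's TMM factors, and changes as log2 fold changes of non-invasive over serum-free cells. A value after ± is the SD of 4 samples for a level in CPM and the standard error (SE) for a change in log2 units. All 12 squamous carcinoma markers looked for had counts in both groups, at a summed 9037 to 11170 CPM in non-invasive and 9507 to 10020 CPM in serum-free samples. KRT6A and KRT14 were near the detection limit in serum-free samples, and single markers moved both ways, as given below. Of 10 fibroblast, 10 leukocyte, 8 endothelial and 6 red cell markers, only COL1A1, CD68 and CDH5 were among the genes listed. COL1A1 ranged from 4.43 to 10.9 CPM in non-invasive and 16.9 to 22.4 CPM in serum-free samples, CD68 from 6.95 to 10.9 and 0 to 1.70 CPM, and CDH5 from 0 to 0.224 and 2.27 to 5.29 CPM. The part of these cell types in the results was not tested. Mitochondrial transcripts took 7.43% to 11.4% of the counts in non-invasive and 14.2% to 15.7% in serum-free libraries. In bulk samples a change in the share of cells of a kind and a change in RNA per cell cannot be told apart.

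Serum-free replicate 2 stood apart. It held 382 counts of the interferon gene IFNG, 368 of the interleukin-2 receptor chain IL2RA, 364 of lymphotoxin LTA and 224 of lymphotoxin LTB, genes of activated lymphocytes, where the other 3 serum-free libraries held 0. In this library 15 genes had a level, in CPM, over 4 times the sum of 1 CPM and the highest level of the other 3 replicates, and in each of the other 7 libraries 0 genes did. Non-invasive replicate 2 held 15, 6, 11 and 8 counts of IFNG, IL2RA, LTA and LTB. Where these transcripts came from was not tested. Without serum-free replicate 2, 5454 of the 6068 genes called with all libraries were called in the same direction and 0 in the opposite one. One gene that moved much was LCP1, an actin-bundling protein of leukocytes and many carcinomas, whose change was 3.65 log2 units with that library and 6.79 without it, from 1 to 79 counts in serum-free and 261 to 371 in non-invasive samples. It was singled out after its values were seen. Counts of list members below that move by over 1.5 times without serum-free replicate 2 are given both ways.

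Of 12131 genes tested, 6068 (50%) differed between the groups at an adjusted p under 0.05 in the quasi-likelihood test of edgeR, adjusted over all genes by the Benjamini-Hochberg method, and are referred to as called. They divided into 3071 higher (25.3%) and 2997 lower (24.7%) in non-invasive cells. A change of at least 2-fold was called for 3391 genes (28.0%), 1468 higher and 1923 lower, and a change of at least 4-fold for 475 higher and 787 lower. For 6826 genes (56.3%) the 4 values of one group all lay above the 4 of the other. The median log2 fold change over all genes was -0.02. Scaling by upper quartiles shifted it by -0.14 and gave 2501 genes higher and 3652 lower, so small changes depend on the scaling.

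The highest rises included MMP1, the interstitial collagenase, which cuts the type I collagen that surrounds these spheroids. It stood at 43.7, 73.4, 93.8 and 93.9 CPM in the 4 non-invasive samples and at 0, 0, 0 and 0.504 CPM in the serum-free ones. MMP1 had no count in 3 of the 4 serum-free libraries. FST, which encodes the activin-binding protein follistatin, measured 239.8, 293, 453 and 402 CPM against 3.68, 0.469, 0.567 and 1.26 CPM, a change of 8.04 ± 0.67 log2 units (edgeR adjusted p = 5.1e-08). INHBA, the activin subunit that follistatin binds, measured 32.5, 71.05, 118 and 108 CPM against 1.23, 0.704, 0.851 and 0 CPM. The lowest of the 4 non-invasive values of MMP1, FST, IL1RL1 and INHBA was that of replicate 1 in each case, and the groups stayed far apart. Replicate 1 was also lowest for other genes that rose, such as AKAP12, CALB2, DUSP6, PHLDA1, HBEGF and ITGA2, but not for CDC6, BIRC5 or SPRY4.

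AKAP12, a scaffold for protein kinases A and C, rose from 15.1, 19.5, 16.2 and 21.9 CPM to 1336, 1958, 1809.8 and 1892 CPM. CALB2, the calcium-binding protein calretinin, reached 139.8, 172, 151 and 151 CPM from at most 0.851 CPM. IL1RL1, the receptor of interleukin-33, reached 66.1, 146, 134 and 150.2 CPM from at most 0.851 CPM. The other genes of this rank were the microtubule-guiding NAV3 at 6.36 ± 0.42, the vesicle GTPase RAB3B at 5.48 ± 0.37, the adhesion molecule CLMP at 5.47 ± 0.38, the hormone stanniocalcin STC1 at 5.38 ± 0.65 and the neuropeptide galanin, from GAL, at 5.35 ± 0.41 log2 units. For none of the 12 genes with the largest rises did the groups overlap, as the rule that chose them required.

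Among the falls, ATP6V1B1, a subunit of the proton pump that acidifies urine and airway fluid, stood at 49.4, 53.3, 63.3 and 50.4 CPM in serum-free samples and had 0 counts in all 4 non-invasive ones, at least 314-fold lower where a group at 0 is set to 3 counts in all. KRT4, a keratin of differentiated mucosa, fell from 359, 401, 364 and 376 CPM to 0, 0.699, 0.446 and 1.45 CPM. Its partner KRT13 fell from 192, 185, 192 and 189 CPM to 0.224, 1.63, 1.11 and 1.45 CPM. The serum-free samples varied little for these genes, and the non-invasive samples were near the detection limit.

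CP, the copper-carrying ferroxidase ceruloplasmin, fell from 166, 161, 149 and 158 CPM to 1.34, 0.699, 0.446 and 0.484 CPM. The xenobiotic-metabolising enzymes CYP1A1 and ALDH3A1 changed by -6.12 ± 0.36 and -5.68 ± 0.38 log2 units. GATA3, a transcription factor of differentiating epithelium, measured 104, 116, 105 and 119 CPM without EGF and 1.79, 3.49, 0.892 and 2.42 CPM in non-invasive cells. GPNMB, a lysosomal glycoprotein, LCN2, a lipocalin that binds bacterial siderophores, and CCDC80 fell, at -5.24 ± 0.30, -5.08 ± 0.35 and -4.89 ± 0.24 log2 units. TNNT3, a troponin of fast muscle, and VAV3, an exchange factor for small GTPases, fell, at -6.23 ± 0.38 and -5.86 ± 0.46 log2 units.

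**Figure D1:**
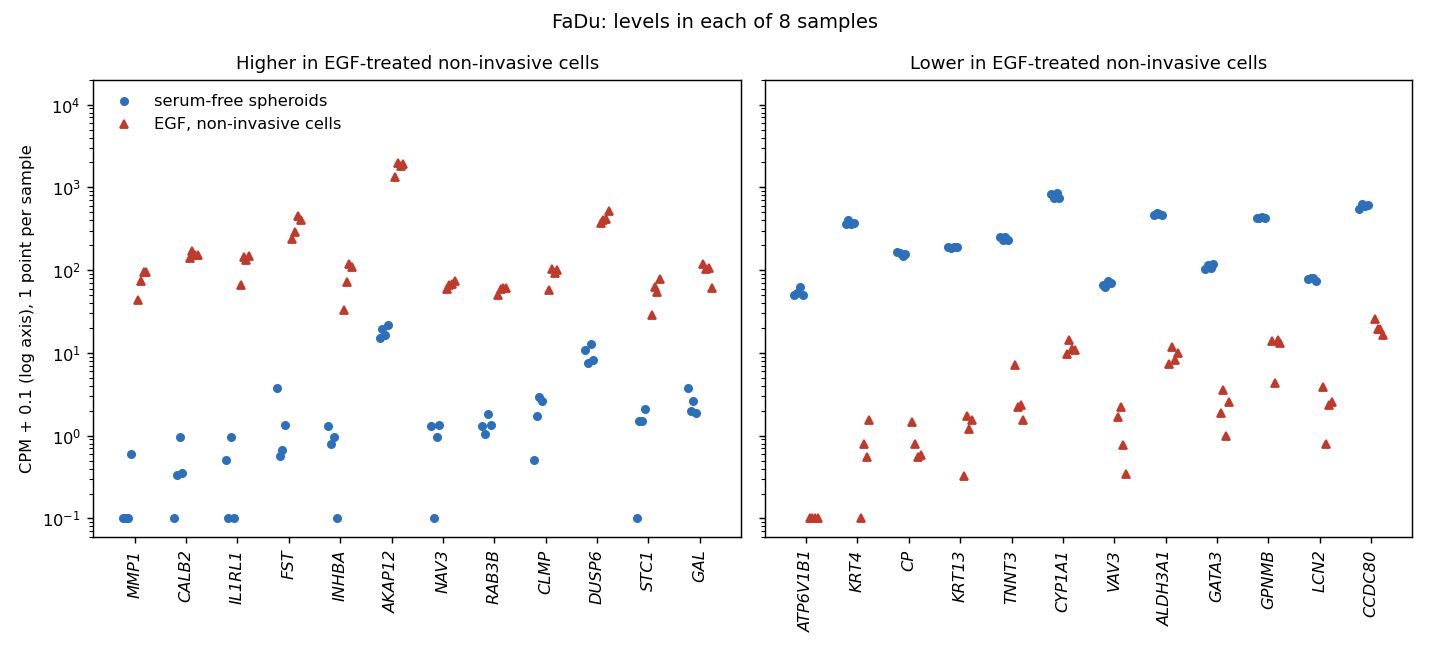
Levels of the 12 genes with the largest rises and the 12 with the largest falls, 1 point per sample, as CPM + 0.1 on a log axis, with serum-free spheroids as blue circles and EGF-treated non-invasive cells as red triangles. For every gene shown the 4 points of one group lie above the 4 of the other, and ATP6V1B1 sits at 0 CPM in all non-invasive samples.

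Genes that report on ERK activity were mostly higher. Of 21 output and feedback genes tested, 16 rose and 1 fell, with a median of 2.39 log2 units, the unit of all list medians, against -0.02 over all genes. The phosphatase DUSP6, which switches ERK off, stood at 366, 405, 417 and 519.6 CPM against 10.6, 7.51, 12.8 and 8.07 CPM in serum-free samples. SPRY4, a Sprouty inhibitor of the pathway, had 0 counts in all serum-free samples and measured 10.3, 4.66, 9.14 and 11.6 CPM after EGF, which is at least 42.2-fold higher. The ETS factors ETV4 and ETV5 measured 33.7 ± 6.04 and 31.8 ± 4.51 CPM (SD, n = 4) against 0.676 ± 0.687 and 2.05 ± 0.940 CPM. PHLDA1 rose from 44.1, 32.4, 26.4 and 36.8 CPM to 381, 519, 641 and 641 CPM. The exception was the ephrin receptor EPHA4 at -2.87 ± 0.69 log2 units. Not called were DUSP5, SPRY1, MYC and EGR1, at -0.05 ± 0.35, -0.92 ± 0.79, 0.16 ± 0.46 and -0.30 ± 0.24 log2 units.

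All 3 receptors of the family that were tested fell. EGFR stood at 556, 583, 496 and 584 CPM in non-invasive and 1445, 1328, 1457 and 1477 CPM in serum-free samples. ERBB3, which lacks an active kinase and signals through its partners, measured 33.6, 27.5, 34.997 and 32.2 CPM against 166, 159, 171 and 169 CPM, a change of -2.37 ± 0.22 log2 units (edgeR adjusted p = 9.9e-10). ERBB2 measured 49.97, 42.9, 47.7 and 52.01 CPM against 112, 122, 109.5 and 117 CPM. No value of one group reached the other for any of the 3 receptors, as for 56.3% of all genes.

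The ligands moved the other way, with 5 of 6 higher and 1 lower. HBEGF, a membrane-anchored ligand shed by proteases, stood at 242, 422, 299.8 and 394 CPM in non-invasive samples and 20.02, 13.4, 20.1 and 19.4 CPM in serum-free ones. TGFA measured 58.7 ± 10.7 against 8.53 ± 2.05 CPM, amphiregulin, from AREG, 569.9 ± 82.2 against 119 ± 5.38 CPM and epiregulin, from EREG, 285 ± 33.1 against 43.6 ± 7.49 CPM. NRG1, the ligand of ERBB3, rose by 2.20 ± 0.27 log2 units. Betacellulin, from BTC, was the ligand that fell, from 8.30 ± 1.83 to 1.44 ± 0.762 CPM.

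Regulators that end receptor signalling moved both ways, 3 of 11 higher and 4 lower, where 25.3% of all genes rose and 24.7% fell. ERRFI1, an inhibitor that binds the EGFR kinase domain, rose by 2.85 ± 0.31, and the phosphatase PTPN1 by 0.90 ± 0.14 log2 units. LRIG1, a membrane protein that promotes receptor degradation, fell from 17.2 ± 2.54 to 0.347 ± 0.138 CPM, and the receptor phosphatase PTPRK fell by 2.57 ± 0.19 log2 units. The AP-1 and immediate early genes moved both ways too, with 4 of 17 higher and 7 lower. FOSL1 and the survival gene IER3 rose by 3.96 ± 0.51 and 2.57 ± 0.28, whereas FOSL2 and EGR2 fell, at -2.18 ± 0.25 and -2.77 ± 0.43 log2 units.

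The other FaDu groups share the serum-free samples with this comparison, so their values are placed beside it without a test of their likeness. DUSP6 stood at 104 ± 36.6 CPM with cetuximab and 9.68 ± 3.91 CPM with AZD6244, and HBEGF at 56.9 ± 38.3 and 17.2 ± 9.03 CPM. ETV4 measured 37.1 ± 5.89 CPM with cetuximab and 1.38 ± 1.24 CPM with AZD6244. Of the 21 ERK output genes, cetuximab samples had 13 higher and 1 lower than serum-free (22.7% and 21.1% of all genes) and AZD6244 samples 2 higher and 3 lower (10.8% and 8.63% of all genes). Invasive cells had 16 higher and 2 lower (27.8% and 29.5% of all genes). EGFR and ERBB3 stood at 538 ± 101 and 37.7 ± 7.72 CPM with cetuximab, and at 997 ± 121 and 56.8 ± 20.6 CPM with AZD6244, below the serum-free level in each case.

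**Figure D2:**
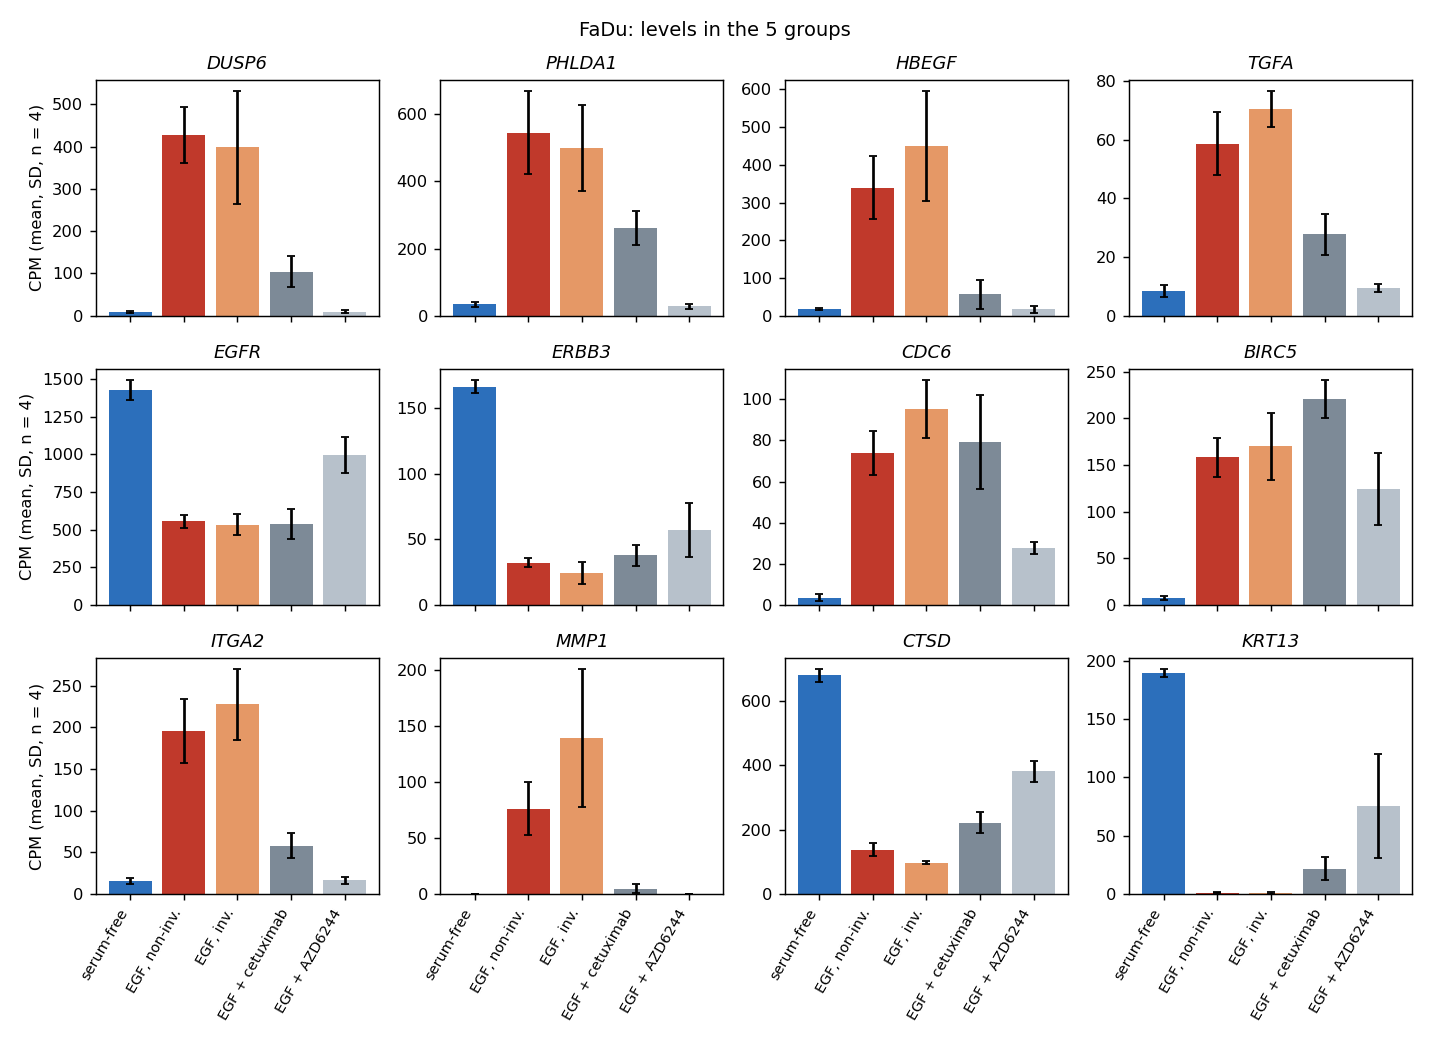
Mean level in CPM of 12 genes in the 5 FaDu groups, with the SD of 4 samples as error bars that are cut at 0. DUSP6, TGFA and HBEGF were high in both EGF groups and near the serum-free level with AZD6244, whereas CDC6 and BIRC5 stayed above serum-free in all 4 groups given EGF.

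Genes of the division cycle rose together. Of 22 DNA replication genes 21 rose and 0 fell, with a median of 2.26, and of 22 G2/M genes 22 rose, with a median of 3.29, where 25.3% of all genes rose. CDC6, which loads the replicative helicase onto origins, stood at 83.1, 78.5, 75.1 and 58.5 CPM against 2.04, 3.75, 2.84 and 5.55 CPM. CDT1, its partner in loading, rose by 3.13 ± 0.27, the helicase cofactor GINS2 by 3.13 ± 0.28 and the ribonucleotide reductase subunit RRM2 by 4.04 ± 0.28 log2 units.

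In mitosis, CDC20, which activates the anaphase-promoting complex, rose from 4.81 ± 1.61 to 98.2 ± 8.61 CPM (edgeR adjusted p = 7.4e-15). BIRC5, survivin, measured 164, 183, 154 and 132 CPM against 8.58, 8.45, 9.08 and 4.03 CPM. The ubiquitin-conjugating enzyme UBE2C and the midzone kinesin KIF23 rose by 3.86 ± 0.21 and 3.81 ± 0.21 log2 units. The mitotic kinase PLK1, chosen for its promoter after its values were seen, rose by 3.79 ± 0.29 log2 units. Every serum-free sample had a low but non-zero level of CDC6 and BIRC5. No serum-free value reached the lowest non-invasive one, and the groups were also apart for 56.3% of all genes. Of the replication and G2/M lists, 22 and 22 members were higher than serum-free with cetuximab and 20 and 22 with AZD6244, with medians of 1.41 and 3.05 for AZD6244.

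Promoters of many of these genes carry short motifs through which the cycle is known to act. The stretches before the start sites of 4 members are shown as examples that rose and hold such motifs. E2F factors bind sites such as TTTGGCG and TTTCCCG and drive genes of DNA synthesis, and the DREAM and MuvB complexes bind the cell cycle homology region TTTGAA, often near a CCAAT box, in genes of mitosis. Each line gives the 250 bases before the first listed RefSeq start on GRCh38.p14, 5′ to 3′ along the gene, with motif matches of either strand in capitals. CDC6 lies at chr17:40287629-40287878 and CDT1 at chr16:88803539-88803788, with E2F and CCAAT matches marked. CDC20 lies at chr1:43358731-43358980 and PLK1 at chr16:23678639-23678888, with TTTGAA and CCAAT matches marked. All 4 lie on the plus strand.
CDC6: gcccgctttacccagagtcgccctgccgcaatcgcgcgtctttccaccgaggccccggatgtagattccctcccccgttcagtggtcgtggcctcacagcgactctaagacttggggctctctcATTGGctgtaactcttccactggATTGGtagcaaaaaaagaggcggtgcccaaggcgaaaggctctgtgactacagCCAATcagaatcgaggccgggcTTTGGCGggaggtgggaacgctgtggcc
CDT1: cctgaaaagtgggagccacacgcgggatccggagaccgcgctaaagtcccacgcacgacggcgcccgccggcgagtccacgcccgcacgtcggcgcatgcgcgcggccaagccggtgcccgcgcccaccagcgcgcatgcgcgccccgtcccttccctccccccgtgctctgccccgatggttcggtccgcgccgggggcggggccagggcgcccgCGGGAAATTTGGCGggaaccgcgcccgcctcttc
CDC20: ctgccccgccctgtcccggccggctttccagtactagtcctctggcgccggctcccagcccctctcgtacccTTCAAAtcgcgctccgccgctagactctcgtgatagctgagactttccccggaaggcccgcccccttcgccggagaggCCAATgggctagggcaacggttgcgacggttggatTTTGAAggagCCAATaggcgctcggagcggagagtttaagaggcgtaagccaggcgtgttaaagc
PLK1: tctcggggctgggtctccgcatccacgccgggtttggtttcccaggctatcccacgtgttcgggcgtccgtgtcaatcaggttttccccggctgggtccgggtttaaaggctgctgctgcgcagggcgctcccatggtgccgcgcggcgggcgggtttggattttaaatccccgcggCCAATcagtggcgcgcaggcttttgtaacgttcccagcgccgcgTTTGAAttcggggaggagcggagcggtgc

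Of the 19 replication genes with a promoter in the table, 11 held an E2F match in this window (57.9%), against 8.39% of the 9465 tested genes and 5.20% of all 27305 promoters. The cell cycle homology motif stood in 10 of 18 G2/M promoters (55.6%), against 8.34% of tested genes and 13.6% of all promoters, and in 1 of 19 replication promoters. CCAAT stood in 16 of 18 G2/M promoters (88.9%), against 35.8% of tested genes and 33.0% of all promoters. Matches can lie side by side, as do the E2F pair in CDT1 that begin 34 and 27 bases before the start site. A match describes these letters and not the binding of a factor.

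Regulators of cycle entry followed, with 13 of 16 higher and 0 lower. The MYB family factor MYBL2 rose by 4.12 ± 0.25, cyclin D1, from CCND1, from 239 ± 15.6 to 528 ± 27.3 CPM, and its kinase CDK6 by 1.15 ± 0.14 log2 units. Cyclin D2, from CCND2, is not described further, because it stood at 77.9 CPM in serum-free replicate 2 and at most 3.53 CPM in the other 3. Of 15 inhibitors and quiescence genes 4 rose and 9 fell, and 3 rose and 8 fell without serum-free replicate 2. CDKN1B, the inhibitor p27, stood at 16.4, 17.9, 23.9 and 15.97 CPM against 71.1, 58.9, 70.6 and 70.1 CPM. CDKN1A, the inhibitor p21, moved the opposite way, from 41.5 ± 9.52 to 348 ± 73.4 CPM (edgeR adjusted p = 1.8e-05). It stood at 64.9 ± 45.2 CPM with cetuximab and 53.2 ± 13.4 CPM with AZD6244.

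FOXO factors are held out of the nucleus by AKT, a kinase downstream of EGFR, and of 15 of their known targets 11 fell and 0 rose, with a median of -1.54. FBXO32, a ubiquitin ligase of muscle wasting, fell from 196 ± 11.9 to 14.01 ± 3.36 CPM, and KLHL24 and YPEL3 changed by -3.22 ± 0.29 and -2.005 ± 0.23 log2 units. ERBB3, described above, is also in that list. Targets of p53 were divided, 6 of 17 higher and 6 lower (25.3% and 24.7% of all genes). The nuclease AEN changed by 3.13 ± 0.43 and the repair factor XPC by -1.46 ± 0.17 log2 units. Repair and checkpoint genes rose in 16 of 19 cases, 0 fell, and the median was 2.11; BRCA2, the helicase BLM and FANCI rose by 2.31 ± 0.17, 3.11 ± 0.24 and 2.35 ± 0.18 log2 units. Among histone and chromatin genes 15 of 22 rose and 3 fell. HMGA1 and HMGA2, architectural proteins of chromatin, rose by 3.57 ± 0.18 and 4.87 ± 0.32 log2 units.

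Genes for the machinery of protein production rose next to the cycle genes. All 26 ribosome biogenesis genes tested rose, by a median of 1.11, and 25 rose without serum-free replicate 2. NOLC1, a nucleolar phosphoprotein, went from 58.7 ± 8.33 to 198 ± 14.2 CPM, and nucleophosmin, from NPM1, from 267 ± 20.04 to 544 ± 47.6 CPM. Of 20 aminoacyl-tRNA synthetases 17 rose and 0 fell, among them TARS1 at 1.33 ± 0.16 log2 units. The ribosomal proteins themselves differed from this: of 43 tested, 12 rose and 4 fell, with a median of 0.08. Without both libraries that held lymphocyte transcripts 6 rose and 3 fell. RPL12 and RPS2 rose by 1.02 ± 0.12 and 0.90 ± 0.15, and RPLP1 and RPL13A fell, at -0.48 ± 0.10 and -0.67 ± 0.18 log2 units. With upper-quartile scaling 5 ribosomal proteins rose and 9 fell, so no direction is given for that family.

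Nuclear transport genes rose in 18 of 22 cases with 0 lower, among them the importin KPNA2 by 2.01 ± 0.17 log2 units and the GTPase RAN from 268 ± 25.6 to 785 ± 108 CPM. Heat shock proteins and chaperonins rose in 15 of 20 cases. The chaperonin subunits CCT5 and CCT6A rose by 1.61 ± 0.12 and 1.40 ± 0.11 log2 units, and the small heat shock protein HSPB1 was the member that fell, from 1311 ± 40.3 to 361 ± 55.1 CPM. Of 17 chaperones and sensors of the endoplasmic reticulum 14 rose and 0 fell, with the chaperone HSPA5 at 1.20 ± 0.17 and its exchange factor HYOU1 at 1.31 ± 0.16 log2 units. Of 25 proteasome subunits 21 rose and 0 fell, by a median of 0.86. PSMD2, a subunit of the regulatory cap, went from 212 ± 14.98 to 707 ± 32.03 CPM and PSMA7, of the core, by 1.24 ± 0.11 log2 units.

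Genes for the synthesis of precursors moved mostly in the same direction. Of 22 nucleotide and one-carbon genes 16 rose and 1 fell, with CTP synthase CTPS1 at 2.32 ± 0.23 and the purine enzyme GART at 1.36 ± 0.12 log2 units. Among polyamine genes 5 of 10 rose and 1 fell. ODC1, the enzyme that commits ornithine to polyamines, rose from 21.4 ± 3.29 to 220.3 ± 38.8 CPM and the spermine synthase SMS by 1.64 ± 0.12, whereas SAT1, which acetylates polyamines for export, fell by 1.24 ± 0.34 log2 units. Glycolytic genes rose in 16 of 22 cases with 0 lower. The enolase ENO1 went from 701 ± 51.6 to 1932 ± 191 CPM, GAPDH from 1855, 1940.2, 1899 and 1787 to 3873, 4041, 3744 and 4194 CPM, and the lactate carrier SLC16A1 rose by 1.22 ± 0.12 log2 units. GAPDH is often used to scale expression, and its groups did not overlap here.

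Cholesterol synthesis genes rose in 17 of 22 cases and fell in 2, by a median of 1.23, and 1 fell without serum-free replicate 2. Squalene epoxidase, from SQLE, rose by 1.92 ± 0.18 and FDPS by 2.07 ± 0.22 log2 units. PMVK, phosphomevalonate kinase, fell by 1.07 ± 0.21 log2 units. The list had 16 members higher than serum-free with cetuximab and 17 with AZD6244. Fatty acid genes rose in 8 of 14 cases with 0 lower, among them ACLY by 1.45 ± 0.17 and fatty acid synthase, from FASN, by 1.23 ± 0.15 log2 units.

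Mitochondrial genes did not move as one. Of 38 nuclear-encoded respiratory subunits 16 rose and 0 fell, by a median of 0.36, and of 23 mitochondrial ribosomal proteins 18 rose and 0 fell. Of the 13 transcripts made inside mitochondria 2 rose and 4 fell, where 25.3% of all genes rose and 24.7% fell. MT-CO2 fell from 9044 ± 740.0 to 4019 ± 636 CPM and MT-CO3 changed by -0.90 ± 0.18, while MT-ND4L and MT-ND6 rose by 0.89 ± 0.19 and 1.21 ± 0.36 log2 units. The share of counts from mitochondria, lower in the non-invasive libraries as given above, moved with these genes, and the part of RNA quality or dissociation in it was not tested.

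**Figure D3:**
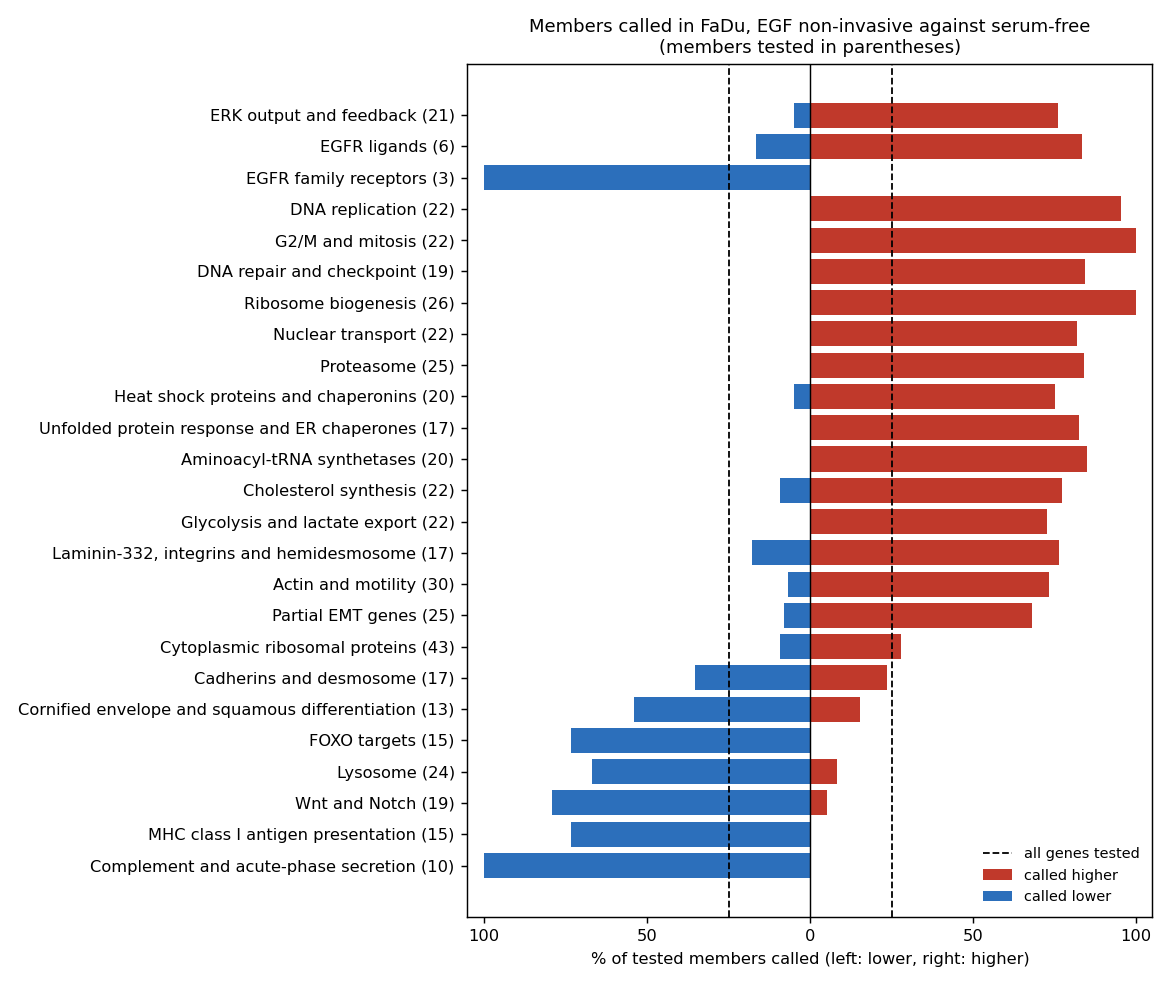
Share of the tested members of 25 gene lists called higher (red, right) or lower (blue, left) in EGF-treated non-invasive FaDu cells, with the shares over all genes, 25.3% and 24.7%, as dashed lines. G2/M and ribosome biogenesis genes reached 100% on the right, complement genes and EGFR family receptors 100% on the left, and cytoplasmic ribosomal proteins, with 12 of 43 higher, lay near the dashed line on the right and, with 4 of 43 lower, short of it on the left.

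Genes of attachment to the matrix were mostly higher, and attachment itself was not measured. Of 17 laminin, integrin and hemidesmosome genes 13 rose and 3 fell, by a median of 1.55. The collagen receptor subunit ITGA2 measured 139, 214, 204 and 225 CPM against 21.2, 13.8, 15.04 and 13.4 CPM. ITGA6 and ITGB1 rose by 2.19 ± 0.14 and 1.87 ± 0.13, and the subunits ITGAV and ITGB8, which activate latent TGF-beta, fell, at -1.43 ± 0.19 and -2.16 ± 0.28 log2 units. ITGA2 stood at 58.02 ± 15.1 CPM with cetuximab, 16.3 ± 4.58 CPM with AZD6244 and 227 ± 42.3 CPM in invasive cells.

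Proteases and their inhibitors were mixed, with 6 of 14 metalloproteinase genes higher and 3 lower (25.3% and 24.7% of all genes). The metalloproteinase ADAM12 rose by 4.49 ± 0.61 and the inhibitor TIMP1 from 59.7 ± 1.98 to 503 ± 72.6 CPM, while TIMP2 and TIMP3 fell, at -1.63 ± 0.29 and -3.72 ± 0.39 log2 units. In the plasminogen system 9 of 15 rose and 3 fell. Tissue factor, from F3, rose from 49.04 ± 7.40 to 615 ± 37.04 CPM, and the activator PLAT fell by 1.995 ± 0.27 log2 units. Collagen genes rose in 8 of 17 cases and fell in 3, with the modifying enzyme PLOD3 at 2.08 ± 0.16 and the anchoring fibril chain COL7A1 at -2.13 ± 0.28 log2 units.

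Of 30 actin and motility genes 22 rose and 2 fell, by a median of 1.30. Fascin, from FSCN1, which bundles actin in protrusions, went from 46.7 ± 2.73 to 420.2 ± 32.7 CPM. ANLN and DIAPH3, which build the contractile ring of dividing cells, rose by 3.63 ± 0.22 and 3.35 ± 0.22 log2 units, so part of that list overlaps with division. Tropomyosin TPM1 and the capping protein CAPG fell, at -0.88 ± 0.16 and -0.83 ± 0.26 log2 units.

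Partial epithelial-mesenchymal transition (EMT), in which carcinoma cells gain motility genes and keep epithelial ones, is read from a set of 25 tested genes, of which 17 rose and 2 fell. MT2A, a metal-binding metallothionein, was among them, with 4676, 3954, 4369 and 4516 CPM against 260.2, 302, 258 and 270.5 CPM. Podoplanin, from PDPN, fell by 1.89 ± 0.27 log2 units. Of 9 EMT factors and mesenchymal genes tested 2 rose and 3 fell, where 25.3% of all genes rose and 24.7% fell. TWIST2 and fibronectin, from FN1, rose by 1.85 ± 0.26 and 3.57 ± 0.91 log2 units. S100A4 and COL1A1 were among the falls, at -3.10 ± 0.29 and -1.38 ± 0.36 log2 units. Vimentin, from VIM, was too low to be tested, at no more than 0.484 CPM in the non-invasive samples. In serum-free samples VIM had 34 counts in replicate 2, the library with lymphocyte transcripts, and 0 in the others.

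Keratins moved both ways. Beside the loss of KRT4 and KRT13, the basal keratins KRT15 and KRT5 fell, from 903 ± 26.9 to 32.8 ± 10.5 CPM and from 762 ± 86.2 to 76.8 ± 18.97 CPM. KRT6A, a keratin of wounded epithelium, rose from 0.126 ± 0.252 to 25.9 ± 6.85 CPM, and KRT14, the usual partner of KRT5, from 0.248 ± 0.357 to 12.5 ± 5.24 CPM. KRT5 and KRT14 thus moved in opposite directions. Reads of KRT6A and KRT14 can be shared with near-identical keratin genes, so their levels are uncertain. The simple keratin KRT18 rose from 1027, 1085, 1087 and 1046 to 2282, 3233, 2516 and 2499 CPM and KRT19 fell from 1652, 1644, 1695 and 1545 to 595, 690.2, 473 and 577 CPM.

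Of 13 tested genes of the cornified envelope and squamous differentiation 2 rose and 7 fell; 6 more were too low to test. The protease KLK11 and the envelope protein CNFN fell, at -3.37 ± 0.48 and -3.01 ± 0.46, and the protease KLK6 and the inhibitor SERPINB1 rose by 1.69 ± 0.19 and 1.86 ± 0.15 log2 units. Among epithelial transcription factors 4 of 22 rose and 6 fell, against 25.3% and 24.7% of all genes, and 3 rose without serum-free replicate 2. SOX2, amplified in many squamous carcinomas, went from 81.99 ± 2.25 to 3.06 ± 0.637 CPM, and ELF3 and PAX9 fell, at -2.93 ± 0.22 and -2.13 ± 0.26 log2 units. IRX4 rose by 2.79 ± 0.57 log2 units. Wnt and Notch genes fell in 15 of 19 cases and rose in 1, by a median of -0.71. NOTCH1, whose signal promotes squamous differentiation, measured 33.7 ± 3.26 CPM against 278 ± 11.03 CPM, NOTCH3 26.4 ± 2.64 against 109 ± 5.73 CPM and the ligand DLL1 2.81 ± 0.646 against 26.9 ± 8.45 CPM.

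Genes of cell contacts moved both ways, where 25.3% of all genes rose and 24.7% fell. Of 17 cadherin and desmosome genes 4 rose and 6 fell, with the desmosomal cadherin DSC3 and the p53 target PERP lower, at -1.61 ± 0.16 and -1.02 ± 0.17, and plakophilin PKP2 and P-cadherin, from CDH3, higher, at 2.07 ± 0.18 and 0.79 ± 0.13 log2 units. E-cadherin, from CDH1, was not called, at -0.51 ± 0.26 log2 units. The tight junction gene CLDN1 fell from 285 ± 14.7 to 14.3 ± 5.39 CPM and CLDN7 rose from 45.1 ± 5.29 to 127 ± 13.4 CPM, 3 higher and 4 lower among 16. S100 genes went both ways, 5 of 11 higher and 4 lower. S100A2 stood at 7239.9, 8879, 8148 and 7669.8 CPM against 1114, 1025, 1158 and 1118 CPM, S100A16 rose by 2.01 ± 0.14 and S100A6 fell by 1.38 ± 0.28 log2 units.

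Transcripts of secreted defence proteins were lower. All 10 complement and acute-phase genes tested fell, by a median of -4.44, where 24.7% of all genes fell. Clusterin, from CLU, went from 377 ± 5.12 to 43.2 ± 3.22 CPM (edgeR adjusted p = 7.9e-13) and the protease inhibitor SLPI from 120.2 ± 9.93 to 13.8 ± 3.01 CPM. CP and LCN2, described above, belong to the same list. Of these 10 genes, 0 were higher and 9 lower than serum-free with cetuximab, and 1 was higher and 3 lower with AZD6244. SLPI stood at 13.3 ± 7.17 CPM with cetuximab and 132 ± 16.5 CPM with AZD6244.

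Genes of antigen presentation on MHC class I fell in 11 of 15 cases and rose in 0, by a median of -1.11. B2M, the invariant light chain, measured 792, 716, 721 and 847 CPM against 1917, 2024, 1973 and 1829 CPM. HLA-E, HLA-F and the peptidase ERAP2 fell, at -1.44 ± 0.15, -2.27 ± 0.30 and -1.05 ± 0.14 log2 units. Heavy chain genes are close copies of each other, so their counts are uncertain. B2M stood at 717 ± 146 CPM with cetuximab and 1774 ± 271 CPM with AZD6244.

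Membrane mucin transcripts were lower, with 6 of 7 mucin and secretory genes down and 1 up, and 0 up without serum-free replicate 2. MUC1 fell from 101 ± 5.04 to 8.83 ± 3.20 CPM, MUC20 changed by -4.58 ± 0.48 log2 units, and the checkpoint ligand VTCN1 fell from 22.9, 24.9, 22.4 and 29.997 to 0.448, 0.233, 0 and 0 CPM. MUC15 had 0 counts in non-invasive cells, at least 54.6-fold lower.

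Inflammatory genes rose more often than they fell, 10 of 20 against 2, and 11 against 1 without serum-free replicate 2. Without both libraries that held lymphocyte transcripts 7 rose and 1 fell. Cyclooxygenase 2, from PTGS2, rose from 6.94 ± 1.43 to 237 ± 122 CPM, interleukin 1 beta, from IL1B, from 10.6 ± 1.56 to 122 ± 19.6 CPM and the neutrophil chemokine CXCL8 from 9.64 ± 2.00 to 59.1 ± 14.4 CPM. CSF1, the macrophage growth factor, fell by 2.18 ± 0.59 log2 units. Of 24 interferon-stimulated genes 6 rose and 3 fell (25.3% and 24.7% of all genes), with a median of 0.02. When serum-free replicate 2, in which MX1, OAS2 and XAF1 stood high, was left out, 6 rose and 1 fell. Without non-invasive replicate 2, 1 fell as well. ISG20 and OAS3 rose by 2.84 ± 0.41 and 1.46 ± 0.23 and STAT2 fell by 0.86 ± 0.21 log2 units.

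Lysosomal genes fell in 16 of 24 cases and rose in 2, by a median of -0.86. Cathepsin D, from CTSD, fell from 679 ± 19.2 to 137 ± 20.3 CPM (edgeR adjusted p = 8.2e-14), the glycogen-degrading glucosidase GAA from 86.3 ± 6.69 to 15.5 ± 1.08 CPM and cathepsin S, from CTSS, changed by -4.80 ± 0.37 log2 units. NPC1, which exports cholesterol from lysosomes, rose by 1.27 ± 0.16 log2 units. CTSD stood at 222 ± 32.8 CPM with cetuximab and 381 ± 32.8 CPM with AZD6244. Factors of the TFEB family are known to bind E-boxes of the type CACGTG in lysosomal promoters. The same 250-base window is shown for the genes CTSD and GAA, examples that fell and hold a match. CTSD lies at chr11:1763928-1764177 on the minus strand and GAA at chr17:80101331-80101580 on the plus strand of GRCh38.p14, and capitals mark CACGTG, which reads the same on both strands.
CTSD: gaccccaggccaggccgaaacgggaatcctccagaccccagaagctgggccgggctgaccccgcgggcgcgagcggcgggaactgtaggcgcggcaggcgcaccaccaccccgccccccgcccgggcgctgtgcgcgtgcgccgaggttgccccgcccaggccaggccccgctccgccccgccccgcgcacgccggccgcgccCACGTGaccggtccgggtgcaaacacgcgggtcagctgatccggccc
GAA: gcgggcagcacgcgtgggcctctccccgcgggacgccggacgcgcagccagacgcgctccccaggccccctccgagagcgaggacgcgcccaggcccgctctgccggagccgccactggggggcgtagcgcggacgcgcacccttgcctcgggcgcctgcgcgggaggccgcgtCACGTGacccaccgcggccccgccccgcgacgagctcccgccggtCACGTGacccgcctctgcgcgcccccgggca
CACGTG stood in 6 of the 15 lysosomal promoters in the table, against 9.10% of tested genes and 6.49% of all promoters.

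The vacuolar proton pump as a set did not share the fall of its subunit ATP6V1B1. Of 15 subunits tested, ATP6V1B1 among them, 2 rose and 3 fell, where 25.3% of all genes rose and 24.7% fell. The median was 0.00, and ATP6V1D rose by 1.12 ± 0.14 log2 units. Autophagy genes fell in 4 of 13 cases, close to the 24.7% of all genes, and rose in 1, or 2 without serum-free replicate 2, with the receptor NBR1 at -0.99 ± 0.14 log2 units. Transcripts of both chains of ferritin, which stores iron, were lower. FTH1 stood at 4627, 4394, 4259 and 3839 CPM against 8923, 8105, 9639 and 8653 CPM. FTL stood at 1181, 933, 1291 and 1111 CPM against 2251, 2294, 2341 and 2253 CPM. Of 7 genes of the aryl hydrocarbon receptor and its targets 4 fell, the receptor AHR among them at -1.70 ± 0.44 log2 units. The others were CYP1B1, at -3.46 ± 0.23 log2 units, and CYP1A1 and ALDH3A1, described above. Of 19 oxidative stress genes of the NRF2 pathway 3 rose and 7 fell, with haem oxygenase, from HMOX1, and GCLM higher, at 1.54 ± 0.27 and 1.19 ± 0.18 and GPX2 and GCLC lower, at -2.20 ± 0.28 and -1.34 ± 0.19 log2 units.

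**Figure D4:**
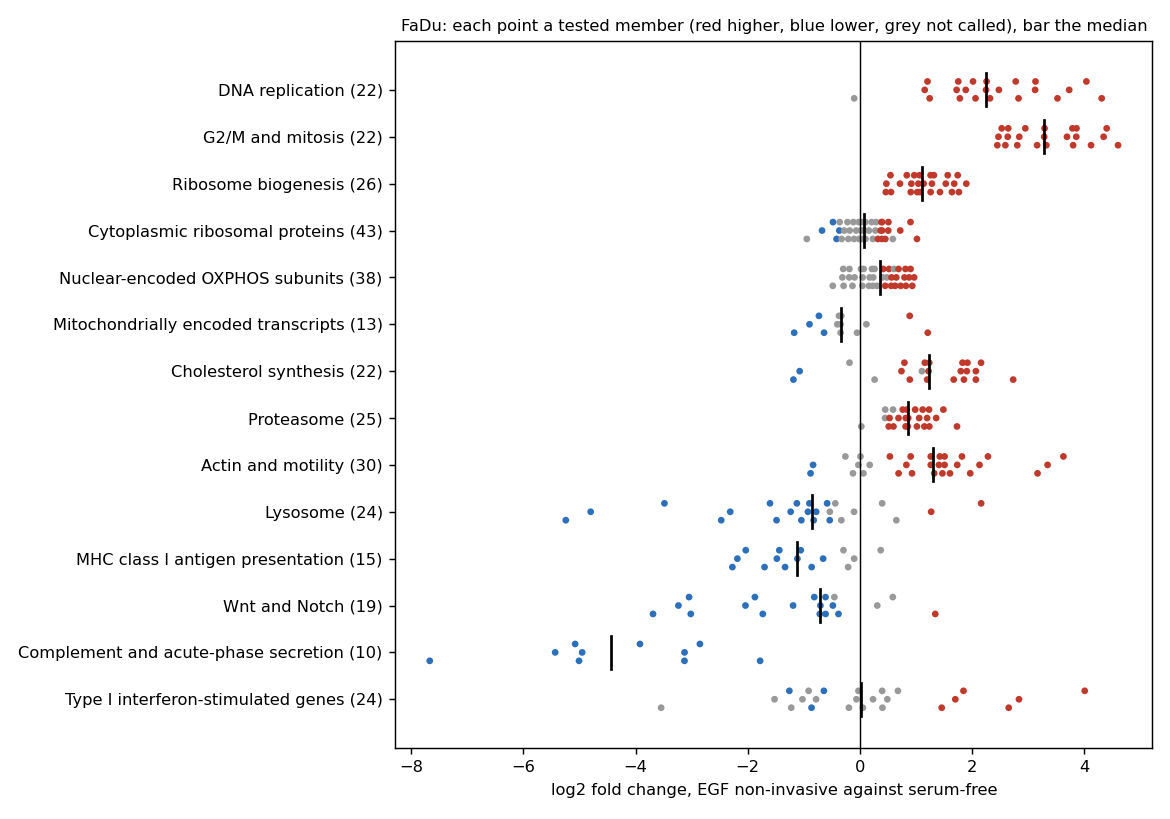
Log2 fold change of every tested member of 14 gene lists, 1 point per gene, red where called higher, blue where called lower and grey where not called, with a bar at the median of each list. The 22 G2/M genes all lie to the right of 0 around 3.29, the 10 complement and acute-phase genes all to the left around -4.44, and the 43 ribosomal proteins spread around 0.08.

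Signalling genes outside the EGFR family were mixed, where 25.3% of all genes rose and 24.7% fell. Of 18 genes of TGF-beta, activin and BMP response 6 rose and 5 fell: TGFB1 rose by 2.91 ± 0.32, while INHBB and the BMP target ID1 fell, at -5.56 ± 0.67 and -1.55 ± 0.20 log2 units. Targets of YAP and TEAD rose in 7 of 16 cases and fell in 6, and the best-known of them, CCN2, fell by 2.35 ± 0.28 log2 units. Ephrins and their receptors rose in 4 of 13 cases and fell in 7, with EFNB2 at 2.45 ± 0.50 and EFNA5 at -1.68 ± 0.26 log2 units. Hypoxia genes rose in 7 of 17 and fell in 4, with the vasodilator peptide ADM at -1.93 ± 0.28 and the oxidase ERO1A at 0.99 ± 0.22 log2 units. Of 18 genes of the ATF4 stress response, ATF4 itself included, 6 rose, ATF4 among them. The 1 that fell was NUPR1, from 18.8 ± 1.60 to 0.284 ± 0.338 CPM, and with upper-quartile scaling 3 rose and 2 fell.

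Glucocorticoid-induced genes rose in 5 of 9 cases and fell in 1, with FKBP5 at 1.99 ± 0.25 and TSC22D3 at -1.81 ± 0.52 log2 units. Clock genes rose in 3 of 13 cases and fell in 4, shares close to the 25.3% and 24.7% of all genes, with NR1D1 at 2.04 ± 0.39 and DBP at -2.56 ± 0.36 log2 units. Of 10 ion and water transport genes 2 rose and 4 fell, with the sodium channel subunit SCNN1A at -2.08 ± 0.27 log2 units.

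The most abundant called transcripts also moved. Besides S100A2 and MT2A, the actin-binding thymosin TMSB10 rose from 417, 399, 397 and 363 to 2966, 2855, 2705 and 2814 CPM and gamma-actin, from ACTG1, from 2921, 2937, 3433 and 2986 to 6080.5, 6639, 5429.7 and 4883 CPM. HSP90AB1 measured 6399.8, 6824, 6588 and 6181 CPM against 2983, 3584, 3192 and 3277 CPM. Desmoplakin, from DSP, fell from 2166, 2199, 2150.5 and 2302 to 998, 1302, 1304 and 1279 CPM. In none of these genes did the groups overlap, which also held for 56.3% of all genes tested. They were chosen among called genes, so this adds nothing to the call.

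The same contrast in Kyse30 was set against FaDu in 1 fit over all 40 samples, in which 4586 genes (36.2%) were called in FaDu and 2677 (21.2%) in Kyse30, 1660 of them higher (13.1%) and 1017 lower (8.04%). The difference between the lines, Kyse30 effect minus FaDu effect, was called for 1983 of 12652 genes (15.7%), 1199 higher (9.48%) and 784 lower (6.20%). Leaving out the first Kyse30 invasive replicate, the library with the fewest counts, raised that number to 3120, and a fit of the 16 samples of the 4 groups gave 3202. Leaving out 1 replicate number from the 4 groups gave 1065 to 1374, with fewer samples tested. Non-invasive Kyse30 libraries ranged from 1.68% to 9.63% of counts in the nuclear RNA MALAT1, against 0.766% to 1.62% in FaDu, and the part of that in the difference was not tested.

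Several ERK output genes responded less in Kyse30 than in FaDu. DUSP6 rose by 5.47 ± 0.42 in FaDu and by 0.97 ± 0.35 in Kyse30, a difference of -4.50 ± 0.52 log2 units (edgeR adjusted p = 6.4e-08). In Kyse30 its levels were 47.1 ± 9.22 CPM in serum-free and 91.99 ± 13.5 CPM in non-invasive cells. ETV4 went opposite ways, 5.79 ± 0.53 in FaDu and -1.29 ± 0.35 log2 units in Kyse30, where it fell from 56.8 ± 2.84 to 23.1 ± 4.79 CPM. Of the 21 ERK output genes the difference was called lower in Kyse30 for 9 and higher for 1. For the ligands AREG, EREG and HBEGF the differences were -0.11 ± 0.67, -0.49 ± 0.75 and -1.12 ± 0.58 and were not called, so at this precision no difference between the lines was shown, and for EGFR the difference was 0.65 ± 0.23 log2 units (edgeR adjusted p = 0.053).

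Genes of replication and mitosis differed between the lines as well. Of the 22 replication genes the difference was called lower in Kyse30 for 20, and 1 of them rose and 2 fell in Kyse30. Of the 22 G2/M genes it was called lower for 15, although 14 rose in Kyse30. CDC6 changed by 4.33 ± 0.40 in FaDu and 0.69 ± 0.36 in Kyse30, and BIRC5 by 4.40 ± 0.41 and 1.60 ± 0.37 log2 units. Serum-free Kyse30 held 17.96 ± 7.51 CPM of BIRC5 and serum-free FaDu 7.53 ± 2.35 CPM. Cholesterol synthesis genes were higher in 15 of 22 cases in Kyse30. The difference between the lines was called for 0 of the 22, which does not show that the lines were alike.

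The largest differences among well-expressed genes are given with their levels. CP measured 3.27 ± 2.81 CPM in serum-free and 9.74 ± 9.33 CPM in non-invasive Kyse30 and was not called there (1.52 ± 0.63), against a change of -7.66 ± 0.70 in FaDu, a difference of 9.18 ± 0.93 log2 units. CCDC80 changed by 1.35 ± 0.44 in Kyse30 and -4.89 ± 0.43 log2 units in FaDu. EGLN3, an oxygen-sensing hydroxylase, changed by 4.90 ± 0.62 and -1.78 ± 0.44, and CEL, a lipase, by 1.41 ± 0.67 and -4.54 ± 0.52 log2 units. VTCN1 stood at 99.6 ± 17.997 and 66.3 ± 18.03 CPM in serum-free and non-invasive Kyse30. Differences in the other direction included FST, at 0.95 ± 0.62 in Kyse30 and 8.02 ± 0.72 in FaDu, AKAP12, at 1.57 ± 0.49 and 6.58 ± 0.61, and the proteoglycan SPOCK1, at -0.91 ± 0.30 and 4.003 ± 0.56 log2 units.

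For HAS3, which makes hyaluronan, the serum-free FaDu samples had 0 counts and the non-invasive ones 11.7, 14.4, 8.47 and 12.6 CPM, at least 55.6-fold higher, while Kyse30 went from 12.9 ± 6.82 to 57.9 ± 24.1 CPM. VIM rose in Kyse30 from 0.367 ± 0.734 to 39.6 ± 9.26 CPM. In FaDu serum-free replicate 2 held 34 counts of VIM and the other 7 libraries 0 to 2, and the difference between the lines was not called without number 2. KRT4 and CYP1A1 fell in both lines, at -9.13 ± 0.58 and -6.11 ± 0.41 in FaDu and -6.84 ± 0.50 and -5.90 ± 0.40 in Kyse30, and IL1RL1 rose in both, by 8.61 ± 0.68 and 9.69 ± 0.81 log2 units. ITGA2 rose in both lines and by less in Kyse30, with a difference of -2.002 ± 0.32 log2 units. TGFA, ERBB3 and KRT13 differed by -1.80 ± 0.36, 1.40 ± 0.45 and 4.97 ± 0.94 log2 units. The difference for ERBB3 was not called when any 1 replicate number was left out, with an edgeR adjusted p of 0.089 to 0.15, and that for HAS3 when number 1 or 2 was.

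**Figure D5:**
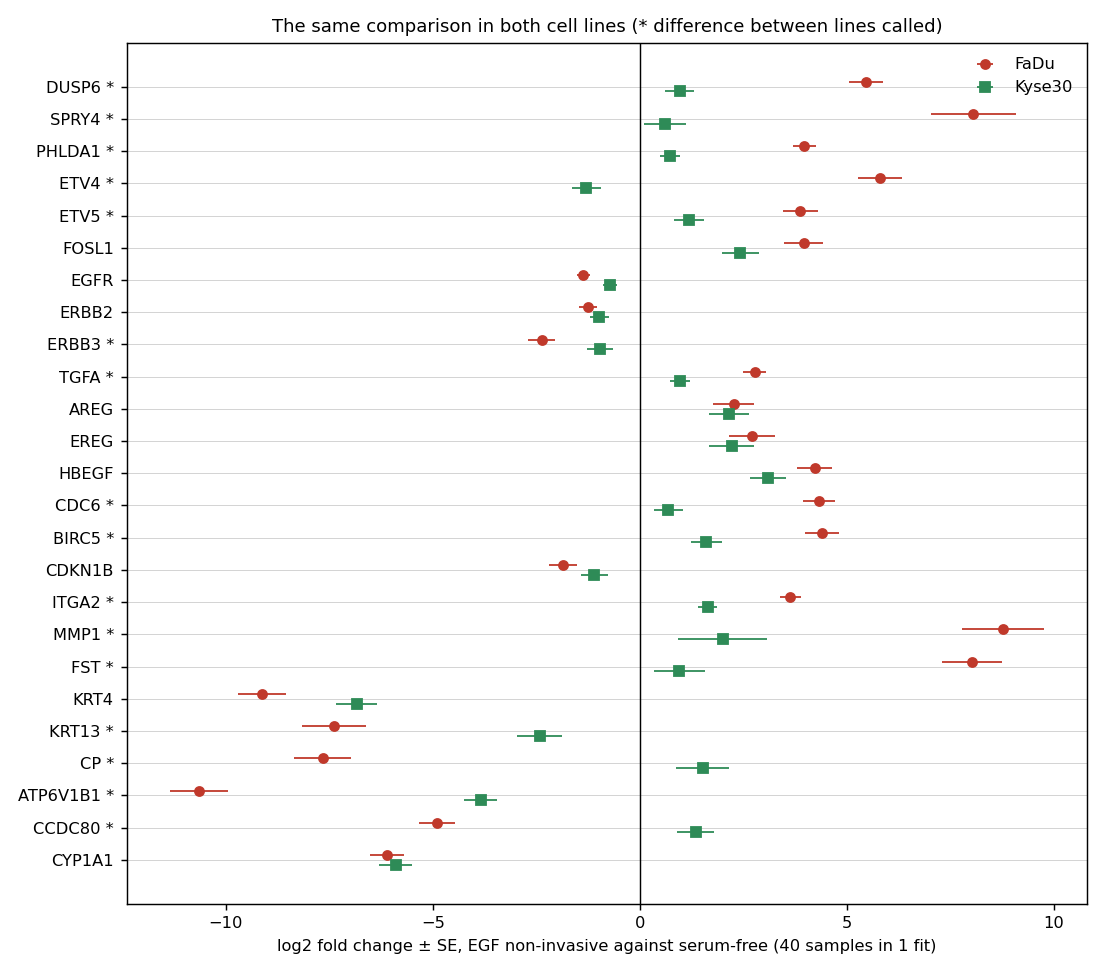
Log2 fold change with its SE of 25 genes in FaDu (red circles) and Kyse30 (green squares), EGF-treated non-invasive cells against serum-free spheroids, from 1 fit over 40 samples, with an asterisk where the difference between the lines was called. DUSP6, CDC6 and MMP1 lie farther to the right in FaDu, ETV4, CP and CCDC80 lie on opposite sides of 0, and AREG, ERBB2 and CYP1A1 lie close together; fitted values of SPRY4 and ATP6V1B1, which had 0 counts in a FaDu group, depend on the prior count.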

How the data were processed

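Expression was measured with QuantSeq 3' mRNA libraries from photoconverted or unselected cells sorted out of collagen-embedded spheroids, per the labels' protocols. The deposited table holds raw read counts per gene for 40 samples; STAR, HTSeq and the builds GRCh38 and hg38 are named in the submitters' processing notes, with versions and settings not given in the sources used here. Low-expressed genes may have been left out by the authors before deposit, since no gene in the table was at 0 in all samples, and a gene that is not in the table has no value here. Samples were grouped by their titles.

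Counts were fitted with edgeR 4.0.16 in R 4.3.3 over the 20 FaDu samples (TMM scaling, filterByExpr by group, which left 12131 of 12655 genes, robust quasi-likelihood F test, Benjamini-Hochberg adjustment over all genes tested). The difference between the lines was an interaction contrast over all 40 samples, and CPM of Kyse30 were scaled over all 40. Bounds used a floor of 3 counts over the group. The script was tested on simulated data. Alternatives were other scalings and filters, DESeq2 1.42.0, limma-voom 3.58.1, other sets of samples, a replicate block and each replicate left out. Leaving out both libraries with lymphocyte transcripts was chosen after seeing the data.

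The comparison, the 70 gene lists and the rules for naming genes were chosen with earlier results of these data known. Genes named were the 12 largest called changes in each direction with a mean of at least 50 CPM and no overlap, the members of each list with the smallest p and up to 2 against its majority, a fixed set of pathway genes, the 6 largest line differences in each direction and 10 abundant called genes in each direction. Genes that share sequence with close copies, such as keratins and HLA genes, may have lost or exchanged reads in counting. Promoters came from RefSeq on GRCh38.p14. Some results are not reported here.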

Additional observations from a re-analysis of the deposited data

Results flagged for a closer look

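In 428 groups of 4 values (the non-invasive and serum-free samples of the tested genes named), 26 held a sample farther from the other 3 than Dixon's 95% limit allows, and chance flags about 1 in 20 groups. Non-invasive replicate 1 was low for DSP at 998.3 CPM (group median 1291), for DUSP5 at 146.8 (183.1), for ISG20 at 35.85 (50.82) and for RAB3B at 50.42 (60.03). It was high for HSPB1 at 443.5 CPM (338.1), for TNNT3 at 6.947 (2.163) and for CDH5 at 0.2241 (0). Non-invasive replicate 2 was low for CTSD at 106.5 CPM (145.7) and GPNMB at 4.193 (13.48) and high for ITGAV at 33.78 (21.35). Non-invasive replicate 4 was at 0 for INHBB (0.2235).

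Serum-free replicate 1 stood apart for CDH3 at 163.4 CPM (144.8) and TARS1 at 259.8 (283). Serum-free replicate 2, the library with lymphocyte transcripts, was low for CDKN1B at 58.89 CPM (70.36), EGR2 at 19.94 (27.77) and HBEGF at 13.37 (19.71) and high for FKBP5 at 11.26 (4.516). Serum-free replicate 3 was high for ACTG1 at 3433 CPM (2962), BRCA2 at 15.04 (11.67), FN1 at 1.419 (0.1173) and GAA at 96.18 (83.75), and low for FOSL2 at 94.19 (118.2) and SCNN1A at 45.68 (55.9). Serum-free replicate 4 was low for BIRC5 at 4.033 CPM (8.512) and was the sample of its group with counts of KRT6A and MMP1, at 0.5042 CPM each (0).

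Of 31 genes tested for a difference between the lines, 23 differed in edgeR's test after adjustment over all genes, where 15.7% of all genes did. Of the 31, 12 were chosen for the largest called difference (CP, ATP6V1B1, EGLN3, VTCN1, CCDC80, CEL, ETV4, FST, MMP1, HAS3, AKAP12 and SPOCK1), so their part of the count is fixed by that choice. Values are Kyse30 minus FaDu in log2 units. Among ERK output genes and ligands the differences were -4.498 for DUSP6, -7.44 for SPRY4, -3.24 for PHLDA1, -7.086 for ETV4, -2.683 for ETV5 and -1.802 for TGFA. ERBB3 differed by 1.4. The cycle genes CDC6 and BIRC5 differed by -3.633 and -2.801. Among matrix and adhesion genes MMP1 differed by -6.779, ITGA2 by -2.002, SPOCK1 by -4.917 and HAS3 by -6.309. FST and AKAP12 differed by -7.071 and -5.006. Differences above 0 were 4.966 for KRT13, 9.179 for CP, 6.811 for ATP6V1B1, 6.678 for EGLN3, 6.338 for VTCN1, 6.239 for CCDC80, 5.951 for CEL and 9.175 for VIM. Fitted values of SPRY4, HAS3 and ATP6V1B1, with 0 counts in a FaDu group, depend on the prior count. The value for VIM rests on 34 counts in FaDu serum-free replicate 2, and without replicate number 2 it was 2.69 (edgeR adjusted p = 0.93).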

How the results depend on the processing

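The count of 6068 FaDu genes called ranged from 4586 (all 40 samples in 1 fit) to 7466 (only the 8 samples compared) over the alternatives run, with 6323 by DESeq2 and 6183 by limma-voom, and from 5427 to 5661 when 1 of the 8 replicates was left out. For the genes named in FaDu, 4263 of 4265 values under an alternative kept direction and side of the threshold, and the other 2 were CDH1, which passed it. Most of these genes were named for large changes or small p-values in the same data, so this adds little to their calls. Over all genes, 5454 of the 6068 calls were kept in the same direction without serum-free replicate 2. The count of 1983 line differences moved more. It was 3202 with only the 16 samples of the 4 groups (1804 higher, 1398 lower) and 3120 without Kyse30 invasive replicate 1 (1746 higher, 1374 lower). It ranged from 1065 to 1374 when a replicate number was left out of the 4 groups, with 622 to 845 higher and 443 to 529 lower, where fewer samples were tested. The difference for MMP1 was not called without number 4 and that for VIM without number 2, settings that leave a FaDu group with no or few counts, and that for EGFR was called under 6 alternatives.

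The samples share only a number in the labels: same-numbered samples deviated from their group means with correlations of -0.044 to 0.119, and 1 of 4 non-invasive samples correlated best with its own number. With the replicate number as a block, 5982 genes were called, 3041 higher and 2941 lower, and 1808 line differences. Of 2800 member counts of gene lists under alternatives, 148 moved by over 1.5 times, mostly counts of 0 to 4. Upper-quartile scaling gave 2 lower members each in glycolysis and nuclear-encoded respiration, where TMM gave 0. Cell cycle inhibitors that rose numbered 2 without non-invasive replicate 1 or serum-free replicate 4, and ribosomal proteins that fell numbered 2 without non-invasive replicate 1, 3 or 4 or serum-free replicate 3. Treatment and selection cannot be told apart, and depth limits values under about 1 CPM, where a library holds a few counts.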
